A study of Mus musculus with 4 samples.

Results

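The transcription factor p53 (gene Trp53), its negative regulator Mdm2 and 8 classical p53 target genes were followed in MC38, a line of mouse colon carcinoma cells. These 10 genes are Trp53, Mdm2, Cdkn1a, Gdf15, Tnfrsf10b, Bbc3, Pmaip1, Bax, Fas and Ccng1, chosen by name for their known roles, out of 24346 gene symbols listed per library. Earlier results of these data were known when these genes and the gene lists below were chosen, so their called shares are descriptive only. RNA sequencing compared 2 libraries labelled Arid5a gene knockout (KO) with 2 labelled wild type (WT), with no treatment named in the labels. The labels do not give the deleted part of Arid5a, whether the KO cells were 1 clone, or whether the libraries of a group came from separate cultures, so the p-values measure only the spread between these libraries. The comparison asks how gene expression differs when the gene for Arid5a, an mRNA-binding protein, has been targeted.

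p53 is activated by DNA damage and other stress, binds DNA as a tetramer and switches on genes that stop the cell cycle, repair DNA or trigger apoptosis. One of its targets, Mdm2, is a ubiquitin ligase that marks p53 for degradation, so the pathway limits itself. Because p53 is controlled mainly at the level of the protein, its mRNA and its activity need not move together. MC38 has been reported to carry coding changes in Trp53. Values per gene do not show the sequence of the transcripts, and neither p53 protein nor its binding was measured.

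Levels are in FPKM, fragment numbers scaled by transcript length and by the size of the library, as the authors deposited them. Depth, estimated from the lowest values, was about 10100000 and 11200000 fragments in the libraries labelled KO and 15200000 and 11700000 in those labelled WT. Arid5a, the targeted gene, had 2.16 and 1.77 FPKM in the libraries labelled KO, against 0.225 and 0.124 FPKM in those labelled WT. Its mRNA was thus higher, not lower, under the KO label. Depending on the transcript, these values stand for about 9 to 121 and 8 to 109 fragments, against 1 to 19 and 1 to 8. A level per gene does not show whether the transcript is intact, so these values cannot settle whether the labels are right. Every direction below is therefore that of the libraries as labelled, not of a loss of Arid5a. All 12 markers of intestinal epithelium examined were below 1 FPKM in every library, with Epcam, Cdx2 and Lgr5 at 0 throughout, while the mesenchymal filament Vim had 1163 and 1169 FPKM in the libraries labelled KO and 1367 and 1343 FPKM in those labelled WT. Of 9 leukocyte markers listed, Cd3e, Adgre1, Itgam and Ncr1 were among those at 0 in all 4 libraries, and the sum of the 9 was 1.08 to 1.84 FPKM in the libraries labelled KO and 5.91 to 6.22 FPKM in those labelled WT, most of it Cd68. The sum of 10 fibroblast or mesenchymal markers was 1784 to 1788 FPKM in the libraries labelled KO and 2530 to 2696 FPKM in those labelled WT, and all 4 endothelial markers stayed below 1 FPKM. Most of the mesenchymal sum was Vim and S100a4, and its members went both ways. The collagen gene Col1a1 had 2.14 and 1.95 FPKM in the libraries labelled KO, against 0.275 and 0.246 FPKM in those labelled WT, while Col3a1 had 6.78 and 6.86 FPKM in the libraries labelled KO, against 29.3 and 26.4 FPKM in those labelled WT. The part of these markers in the results below was not tested. In bulk RNA, a different share of cells that express a gene and a different level per cell cannot be told apart.

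The p53 target genes did not move as 1 block. In the libraries labelled KO, the cell cycle inhibitor Cdkn1a and the stress cytokine Gdf15 were each more than 2-fold as abundant, and the apoptosis genes Bbc3 and Bax were higher by a smaller factor. The death receptor Tnfrsf10b, the cyclin Ccng1 and Trp53 itself were lower. Of the 10 genes, 8 averaged 1 FPKM or more and entered the test; 4 rose, 3 fell and Mdm2 did not pass (limma, Benjamini-Hochberg adjusted p under 0.05). Over all 10827 genes tested, 47.6% were called, 24.4% as higher and 23.3% as lower. The groups did not overlap for any of the 8 tested genes, and they did not overlap for 77.5% of all genes tested. With 2 libraries a group, an exact permutation test of a single gene cannot go below p = 0.333, so the calls rest on limma, which shares information on the spread across genes.

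**Figure D1:**
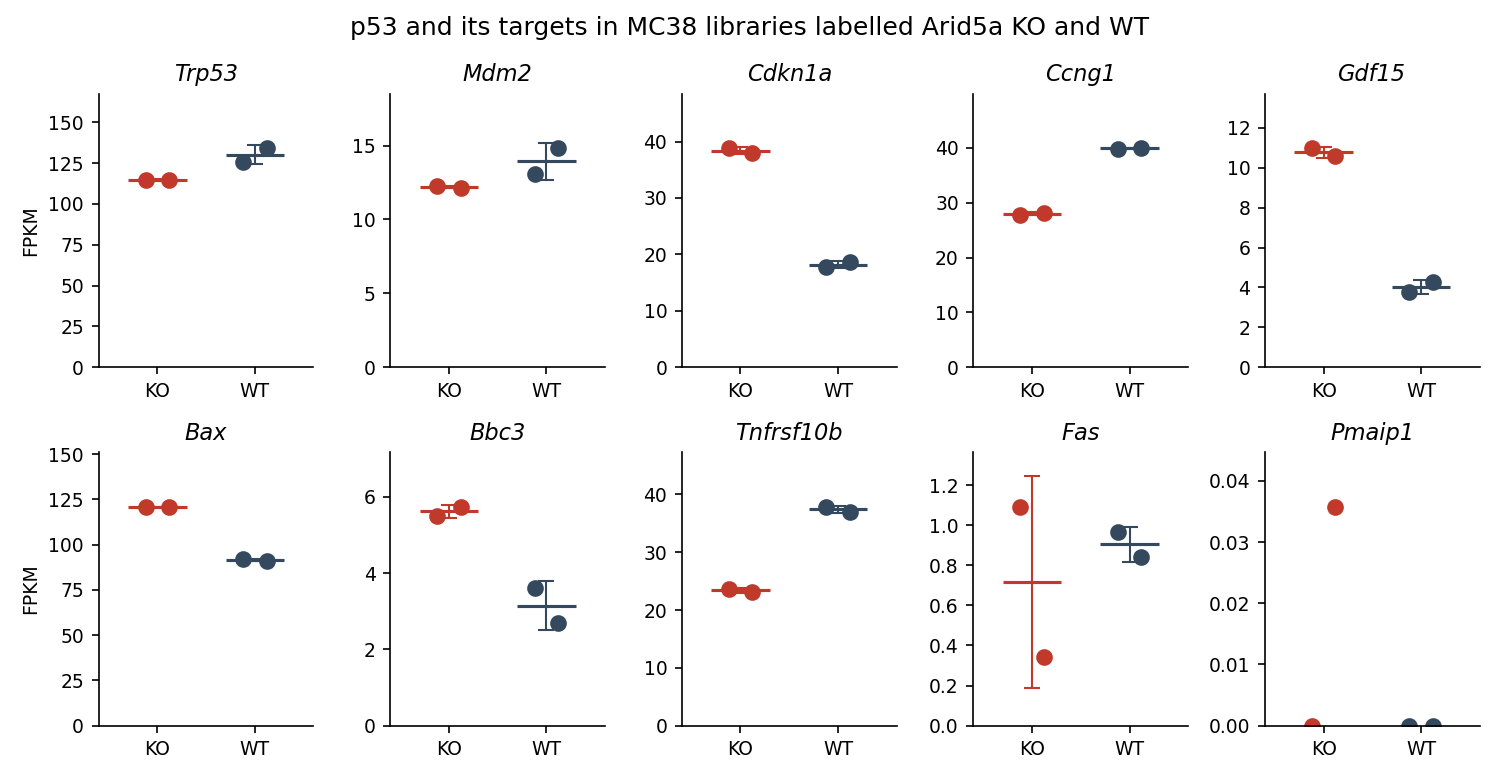
Level of each of the 10 genes in FPKM (vertical axes, each from 0) in the 2 libraries labelled KO (red, left) and the 2 labelled WT (dark, right). Points are libraries, horizontal lines are means and whiskers are SD (n = 2), left out for Pmaip1, which was at 0 in 3 libraries; the groups are apart in every panel except Fas and Pmaip1.

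Trp53 (chromosome 11, 69580359 to 69591873, plus strand, GRCm38) was abundant, within the 92.4th to 93.6th percentile of the genes tested in every library. Its level was 115 and 115 FPKM in the libraries labelled KO, against 126 and 134 FPKM in those labelled WT. Both libraries labelled KO were lower, and the groups did not overlap. The means were 115 ± 0.213 FPKM in the libraries labelled KO and 130 ± 5.76 FPKM in those labelled WT (SD, n = 2 each), a ratio of 0.883. Trp53 fell by 0.18 ± 0.04 on the log2 scale (SE; limma, adjusted p = 0.0152); all changes here are on the log2(FPKM + 1) scale. A processed pseudogene of Trp53 is annotated on chromosome 17, and reads shared with it could affect the level. By absolute log2 change, 48.6% of all tested genes changed less than Trp53 did. Its call was lost without WT replicate 2 (limma, adjusted p = 0.0599), without KO replicate 1 (0.0595) and without KO replicate 2 (0.0568).

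Mdm2 (chromosome 10, 117688875 to 117710758, minus strand) had levels of 12.2 and 12.1 FPKM in the libraries labelled KO and of 13.1 and 14.8 FPKM in those labelled WT. The pair labelled WT was spread more widely than the pair labelled KO. Its log2 change of -0.18 ± 0.07 did not pass (SE; limma, adjusted p = 0.0902). The value rested in part on single libraries labelled WT, being -0.09 without WT replicate 2 and -0.26 without WT replicate 1, neither of them called. Per unit of Trp53 mRNA, the Mdm2 level was 0.107 and 0.106 in the libraries labelled KO and 0.104 and 0.111 in those labelled WT, so the ratio of the 2 levels overlapped between groups.

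Cdkn1a and Ccng1, both targets that act on the cell cycle, moved in opposite directions. Cdkn1a (chromosome 17, 29090976 to 29100727, plus strand) encodes p21, which inhibits cyclin-dependent kinases and holds cells in G1. Cdkn1a had 38.8 and 38.0 FPKM in the libraries labelled KO, against 17.7 and 18.6 FPKM in those labelled WT. Both libraries labelled KO had over 2 times the level of either library labelled WT. The ratio of the means was 2.11 and the log2 change 1.04 ± 0.04 (SE; limma, adjusted p = 0.000167), larger in size than that of 97.0% of all genes tested. A provisional transcript on the other strand overlaps Cdkn1a in the annotation, and how the authors handled strand is not given in the sources used here.

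Ccng1 (chromosome 11, 40748552 to 40755311, minus strand) encodes cyclin G1, which recruits a phosphatase to Mdm2. It had 27.8 and 28.2 FPKM in the libraries labelled KO, against 39.9 and 39.9 FPKM in those labelled WT. The libraries of each group lay within 1 FPKM of each other, and the groups were far apart. Ccng1 fell by 0.50 on the log2 scale, with an SE of 0.03 (limma, adjusted p = 0.000552). The order of the 2 genes was therefore opposite in the groups. The Cdkn1a level was 1.40 and 1.35 times that of Ccng1 in the libraries labelled KO and 0.445 and 0.467 times in those labelled WT, a ratio within a library, which 1 scaling factor per library leaves as it is.

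The 2 genes also shared a feature of their promoters, for which their sequences are shown with that of Gdf15, the member with the largest change. RefSeq windows from 250 bases before to 50 after each transcript start (GRCm38.p6) were at hand for 8 of the 10 genes, in 12 windows. The p53 consensus was searched as a half-site of 10 bases with no mismatch, and as a full site of 2 adjoining half-sites with at most 1 mismatch outside the C and G of each core. The consensus is its own reverse complement, so 1 search covers both strands. Capitals mark half-sites and full sites, and every sequence reads 5′ to 3′ on the gene's strand. The first Cdkn1a window is chr17:29090729-29091028 on the plus strand, and the Ccng1 window is chr11:40755237-40755536 on the minus strand. The first Gdf15 window, the one shown, is chr8:70632407-70632706 on the minus strand.
Cdkn1a: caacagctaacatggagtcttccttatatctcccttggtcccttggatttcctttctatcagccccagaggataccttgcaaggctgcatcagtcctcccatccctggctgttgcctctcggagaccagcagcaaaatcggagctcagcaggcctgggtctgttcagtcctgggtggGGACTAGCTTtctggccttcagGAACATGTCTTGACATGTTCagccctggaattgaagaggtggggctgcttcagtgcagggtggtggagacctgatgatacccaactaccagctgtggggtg
Ccng1: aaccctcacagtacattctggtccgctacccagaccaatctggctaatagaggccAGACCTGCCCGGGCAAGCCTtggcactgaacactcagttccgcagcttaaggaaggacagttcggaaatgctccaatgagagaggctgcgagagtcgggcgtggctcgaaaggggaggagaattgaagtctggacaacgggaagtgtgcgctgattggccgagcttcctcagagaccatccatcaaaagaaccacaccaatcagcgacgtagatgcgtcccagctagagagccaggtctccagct
Gdf15: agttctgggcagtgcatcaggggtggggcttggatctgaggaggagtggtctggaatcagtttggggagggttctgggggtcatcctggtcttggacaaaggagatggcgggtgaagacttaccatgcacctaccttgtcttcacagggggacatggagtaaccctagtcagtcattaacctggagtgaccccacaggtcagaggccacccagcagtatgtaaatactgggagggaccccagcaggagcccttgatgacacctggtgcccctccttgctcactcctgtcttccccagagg

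Of these genes, only Cdkn1a and Ccng1 had a full site in a window, each with 1 mismatch, a match found in 22 of 32851 windows of all genes (0.067%). The genes were chosen as p53 and its known targets, so a higher share of sites among them is no independent result. The Cdkn1a match, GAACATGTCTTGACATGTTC, begins 51 bases before the upstream of its 2 annotated starts (chr17:29090928-29090947). The window at the downstream start of Cdkn1a held no match. The Ccng1 match, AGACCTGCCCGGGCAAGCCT, begins 195 bases before its start (chr11:40755462-40755481). The genes that carry them were called in opposite directions. A single half-site stood in the windows of Trp53 (GGACTTGCCC), Mdm2 (GAACTTGCCT) and Bax (AGGCAAGCTT), and a further one in that of Cdkn1a (GGACTAGCTT), where 8.36% of all windows held at least 1. The windows of Gdf15, Bbc3 and Fas held neither. TGATGNAA, a form of the element bound by the stress factor ATF4, was searched on both strands. It was in none of the 12 windows and in 3.97% of all windows. At that share, 12 windows are too few to show a lack of it, and sequence outside them was not searched. Such matches describe the letters of these windows only. The best known p53 sites of Mdm2, for example, lie in its first intron, outside them.

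**Figure D2:**
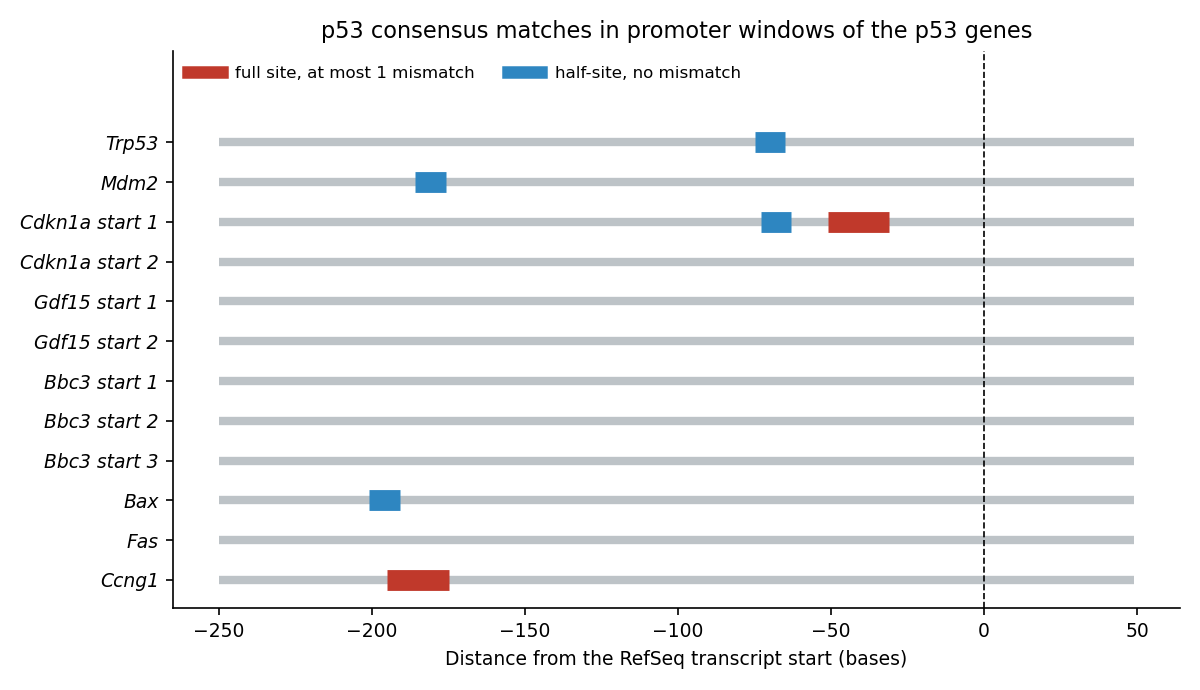
Position of matches to the p53 consensus in 12 promoter windows of 8 genes, by distance in bases from the RefSeq transcript start (dashed line at 0; negative is upstream). Full sites with at most 1 mismatch (red) are in the first Cdkn1a window and the Ccng1 window, and half-sites (blue) in the Trp53, Mdm2, Cdkn1a and Bax windows.

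Gdf15 (chromosome 8, 70629393 to 70632456, minus strand), a secreted cytokine of the TGF-beta superfamily that stressed cells release, had the largest change of the 8 genes tested. Its level was 11.0 and 10.6 FPKM in the libraries labelled KO, against 3.79 and 4.26 FPKM in those labelled WT. The lower library labelled KO was still more than 2 times the higher library labelled WT. The ratio of the means was 2.68 and the log2 change 1.23 ± 0.07 (SE; limma, adjusted p = 0.000355), larger in size than that of 97.9% of all genes tested.

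The genes of the mitochondrial route to apoptosis that could be tested were both higher. Bax (chromosome 7, 45461697 to 45466898, minus strand) encodes the protein that permeabilises the outer mitochondrial membrane. It had 121 and 121 FPKM in the libraries labelled KO, against 91.8 and 91.2 FPKM in those labelled WT. The libraries of a group differed by less than 1 FPKM, against a difference of 29.4 FPKM between the group means. Bax rose by 0.40 ± 0.03 on the log2 scale (SE; limma, adjusted p = 0.000505). A predicted gene on the same strand, Gm45808, overlaps Bax in the annotation, so some reads could belong to either. Bax stood above Trp53 in the libraries labelled KO, at 1.05 and 1.05 times its level, and below it in those labelled WT, at 0.729 and 0.680 times.

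Bbc3 (chromosome 7, 16308393 to 16318205, plus strand) encodes PUMA, a BH3-only protein that binds the survival members of the BCL2 family. It had 5.50 and 5.74 FPKM in the libraries labelled KO, against 3.61 and 2.69 FPKM in those labelled WT. The groups did not overlap, although the libraries labelled WT differed more from each other than those labelled KO. Bbc3 rose by 0.68 ± 0.12 on the log2 scale (SE; limma, adjusted p = 0.00854), with the largest standard error of the 8 genes. Leaving out WT replicate 1 gave 0.84 and leaving out WT replicate 2 gave 0.52, both still called.

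Pmaip1, which encodes the BH3-only protein NOXA, was listed at 0 in 3 libraries and at 0.0358 FPKM in KO replicate 2. That value corresponds to about 1 fragment over its longest annotated transcript. A difference in Pmaip1 was thus not detectable at this depth (limma with no filter, adjusted p = 0.645).

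The death receptors stood at very different levels. Tnfrsf10b (chromosome 14, 69767472 to 69784411, plus strand), the mouse receptor for the death ligand TRAIL, had 23.7 and 23.1 FPKM in the libraries labelled KO, against 37.9 and 36.96 FPKM in those labelled WT. Both libraries labelled KO were well below both labelled WT. The ratio of the means was 0.625 and the log2 change -0.66 ± 0.04 (SE; limma, adjusted p = 0.000346), the largest fall among the 8 genes and larger in size than that of 92.9% of all genes tested. Cdkn1a was 1.64 and 1.65 times as abundant as Tnfrsf10b in the libraries labelled KO, and 0.468 and 0.505 times in those labelled WT.

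Fas (chromosome 19, 34290666 to 34327772, plus strand), the receptor for FAS ligand, had 1.09 and 0.342 FPKM in the libraries labelled KO and 0.967 and 0.842 FPKM in those labelled WT. The libraries labelled KO lay on either side of those labelled WT. Depending on the transcript, these values stand for about 6 to 18 fragments in KO replicate 1 and 2 to 6 in KO replicate 2, against 7 to 24 in WT replicate 1 and 5 to 16 in WT replicate 2. The mean was below 1 FPKM. Fitted with no filter, the value for Fas was -0.18 ± 0.23 on the log2 scale (SE; limma, adjusted p = 0.593), so a difference was not detectable at this depth.

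**Figure D3:**
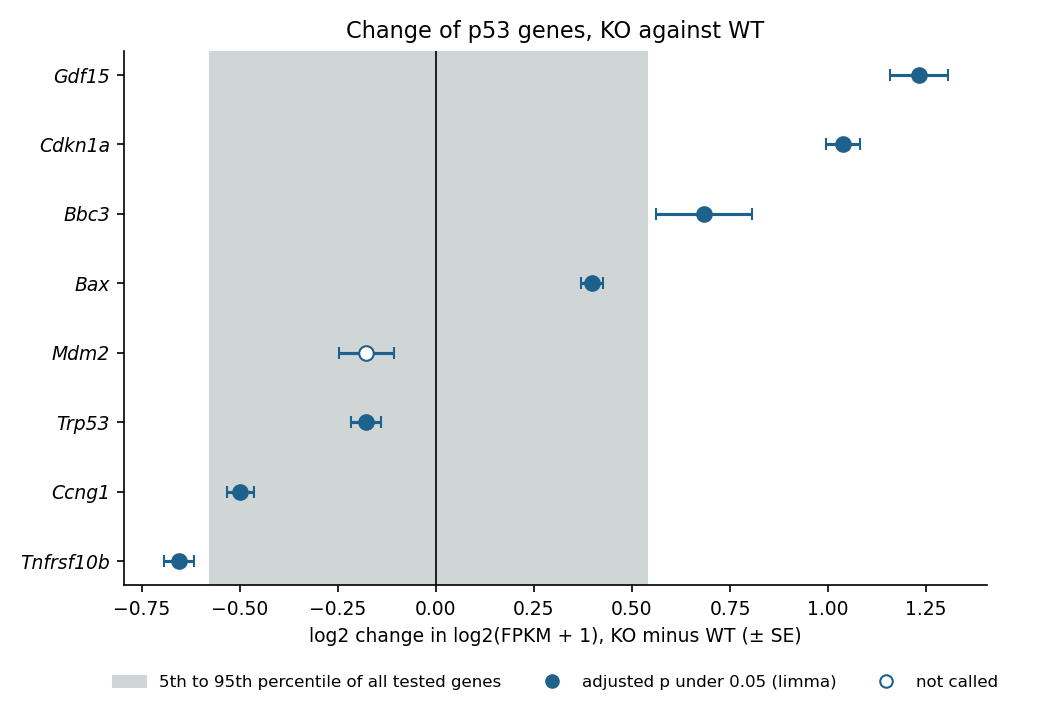
Log2 change (KO minus WT, horizontal axis, on the log2(FPKM + 1) scale) of the 8 genes tested, with bars of 1 SE; filled points were called by limma at an adjusted p under 0.05 and the open point was not. Gdf15, Cdkn1a and Bbc3 lie above the grey band, which spans the 5th to 95th percentile of all tested genes (-0.58 to 0.54), and Tnfrsf10b lies below it.

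By level per length, the order of the genes differed between the groups. In the libraries labelled KO it ran from Bax and Trp53 through Cdkn1a, Ccng1, Tnfrsf10b, Mdm2, Gdf15 and Bbc3 down to Fas and Pmaip1. In the libraries labelled WT, Trp53 stood above Bax, and Ccng1 and Tnfrsf10b above Cdkn1a. There Gdf15 and Bbc3 were close, with Gdf15 at 1.05 and 1.59 times the level of Bbc3. In the libraries labelled KO that ratio was 2.00 and 1.84. In each group, the values of neighbours in its order did not overlap.

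A list of 47 further p53 targets held called genes in both directions. Of 42 tested, 11 rose, 11 fell and 20 did not pass (limma), with a median log2 change of 0.05, against 0.01 over all genes tested. Thus 52.4% of the list was called, near the 47.6% of all genes tested. Ddit4, an inhibitor of the growth kinase mTORC1, had 162 and 158 FPKM in the libraries labelled KO, against 44.2 and 45.0 FPKM in those labelled WT, a log2 change of 1.82 ± 0.03 (limma, adjusted p = 3.1e-05). Gadd45a, a growth arrest and DNA damage gene, rose by 1.10 ± 0.11 (limma, adjusted p = 0.00164), and Gpx1, a glutathione peroxidase, by 0.64 ± 0.03. Tap1, the peptide transporter of antigen presentation, fell to 35.8 and 34.3 FPKM in the libraries labelled KO, against 66.8 and 67.3 FPKM in those labelled WT, a log2 change of -0.92 ± 0.04. The tetraspanin Cd82 changed by -0.61 ± 0.05. With any 1 library left out, fewer of these targets were called in each direction, and fewer of all genes tested were called as well.

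Regulators and partners of p53 were called in both directions. Of 27 tested, 11 rose, 5 fell and 11 did not pass (limma), with a median log2 change of 0.10. The share called was 59.3%, against 47.6% of all genes tested (24.4% called higher and 23.3% called lower). The deacetylase Sirt1, which removes acetyl groups from p53, rose by 0.59 ± 0.07 (limma, adjusted p = 0.00235), with 12.4 and 11.8 FPKM in the libraries labelled KO, against 7.26 and 8.12 FPKM in those labelled WT. Rpl5, a ribosomal protein that can bind and inhibit Mdm2, rose by 0.49 ± 0.02, a value that reads from near-identical pseudogene copies could affect. The 5 that fell were Usp10 (-0.51 ± 0.03), a deubiquitinase of p53, the nuclear body protein Pml (-0.51 ± 0.05), Cdkn2a (-0.41 ± 0.10), whose ARF product inhibits Mdm2, the DNA damage kinase Atm (-0.26 ± 0.05) and the chaperone Daxx (-0.20 ± 0.06). Cdkn2a, Atm and Daxx each lost the call in at least 2 alternatives, with adjusted p up to 0.104, 0.0695 and 0.142 (limma). With no filter on low values, 10 rose and 3 fell. With any 1 library left out, fewer genes of this list were called, and so were fewer of all genes tested.

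Genes that p21 represses through the DREAM complex are mostly genes of mitosis and DNA replication. Beside the higher Cdkn1a, these genes were called in both directions, more often higher than lower. Of 31 tested, 18 rose, 5 fell and 8 did not pass (limma), with a median log2 change of 0.16. This made 74.2% called, where 47.6% of all genes tested were called, 24.4% as higher and 23.3% as lower. The ubiquitin conjugating enzyme Ube2c, which serves the anaphase-promoting complex, had 354 and 376 FPKM in the libraries labelled KO, against 222 and 220 FPKM in those labelled WT, a log2 change of 0.72 ± 0.04 (limma, adjusted p = 0.000228). The mitotic kinases Bub1, Aurkb and Aurka rose by 0.51 ± 0.03, 0.51 ± 0.04 and 0.47 ± 0.04, and the cyclin Ccnb2 by 0.45 ± 0.04. Those that fell were the transcription factor Foxm1 (-0.36 ± 0.03), the apoptosis inhibitor Birc5 (-0.36 ± 0.04), E2f2 (-0.29 ± 0.07), the kinetochore motor Cenpe (-0.24 ± 0.03) and Cdc20 (-0.22 ± 0.03), an activator of the anaphase-promoting complex. E2f2 lost its call in 3 alternatives, with adjusted p up to 0.110 (limma). Fewer genes of this list were called with any 1 library left out, as was the case for all genes tested.

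Several members are also induced by factors other than p53, of which 20 were listed. Of 19 tested, 7 rose, 3 fell and 9 did not pass (limma), with a median log2 change of 0.12. The 52.6% called was near the 47.6% of all genes tested (24.4% called higher and 23.3% called lower). Atf4, the factor of the amino acid stress response, which is known to act on Gdf15 and Ddit4 among others, had 400 and 403 FPKM in the libraries labelled KO, against 193 and 198 FPKM in those labelled WT. Its log2 change was 1.03 ± 0.03 (limma, adjusted p = 4.24e-05). Ddit3, which encodes CHOP, a known activator of Bbc3 and of the human TNFRSF10B gene, rose by 1.00 ± 0.11. Of these 2 targets, Bbc3 was higher in the libraries labelled KO, while mouse Tnfrsf10b was lower (-0.66 ± 0.04). The stress factors Nupr1 and Cebpb rose by 1.74 ± 0.05 and 1.53 ± 0.06. Among those that fell were Egr1 (-1.73 ± 0.08), an immediate early factor, and Klf4 (-0.48 ± 0.06), an activator of Cdkn1a. The part of any of these factors in the changes of the p53 targets was not tested.

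**Figure D4:**
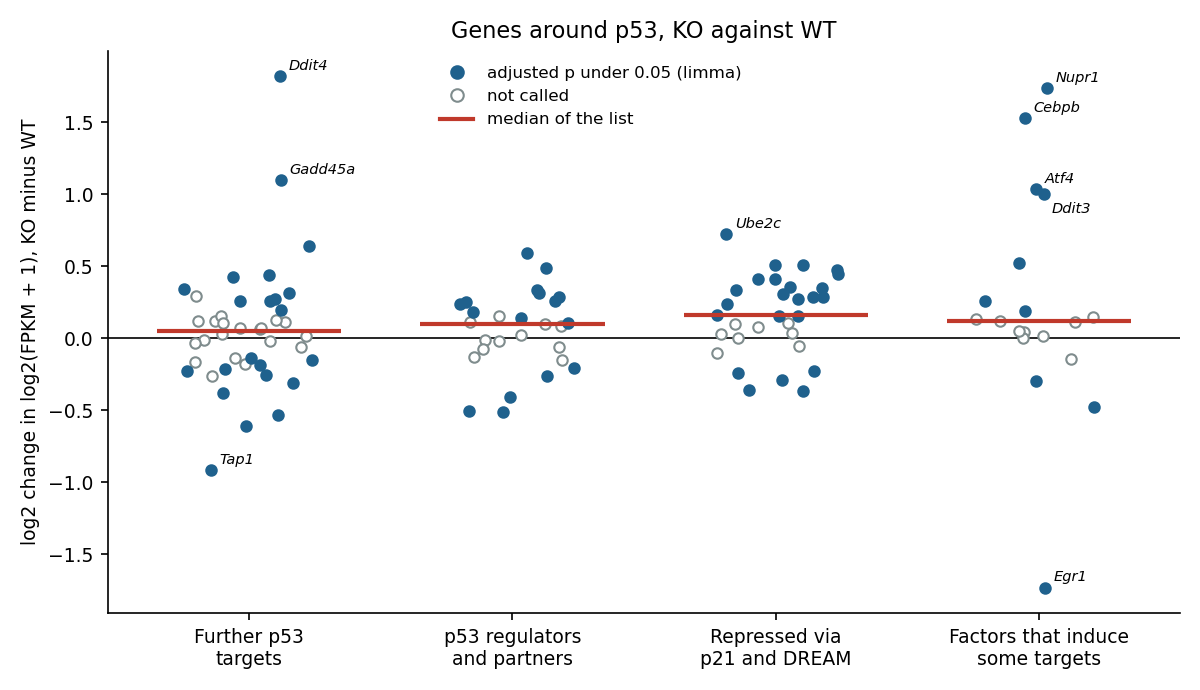
Log2 change (KO minus WT, vertical axis, on the log2(FPKM + 1) scale) of each tested gene in 4 lists around p53; filled points were called by limma at an adjusted p under 0.05, open points were not, and red lines are medians. The medians lie between 0.05 and 0.16, and each list holds called genes on both sides of 0.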

How the data were processed

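RNA was extracted with a column kit, and stranded polyadenylated libraries were made, per the labels' protocols. The submitters' processing notes name Cufflinks 2.2.1, TopHat2 2.0.13, SAMtools 0.1.19, Bowtie2 2.2.3 and the build mm10; settings, annotation and handling of strand are not given in the sources used here. Each library has 1 table of FPKM values deposited by the authors. FPKM sums over a gene's isoforms, and whole counts were not recovered.

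The fit used limma 3.58.1 in R 4.3.3 on log2(FPKM + 1) of all symbols whose mean reached 1 FPKM, with a variance trend and no replicate block; tests were two-sided, adjusted by Benjamini-Hochberg over all genes tested and called at 0.05. The scale understates changes of genes near 1 FPKM. Depth came from genes of 1 GENCODE M21 transcript of over 2500 bases below 0.05 FPKM. The most frequent product of FPKM and a shortened transcript length was taken as 1 fragment. Fragment numbers of single genes used the full length, so they are rough, most of all for short transcripts. Gene coordinates are those of GENCODE M21 (GRCm38, the same assembly as mm10), and promoters are from RefSeq on GRCm38.p6. Python 3.11.15 with pandas 2.3.3, numpy 2.4.6 and matplotlib 3.10.9 served for the rest.

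The 10 genes and all lists were chosen with earlier results of these data known. Every member is described. From each other list, the 5 called genes with the largest absolute change were named, and all called genes in a direction with 5 or fewer. Of the genes so named, 1 is not reported here. Alternatives covered the pseudocount, the filter, the scaling, the moderation of variances, a replicate block and the omission of each library.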

Additional observations from a re-analysis of the deposited data

How the results depend on the processing

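The 8 genes tested were refitted under 14 alternatives (13 for Bbc3, which a filter of 5 FPKM removed). None of the 111 values changed direction, 108 kept their side of the threshold and 7 of the 8 genes did so under every alternative. The exception was Trp53, whose log2 change lay between -0.22 and -0.13 with 1 library left out and lost its call in 3 of these 4 fits; the cause of the loss was not tested. The number of members called was 4 higher under every alternative except the filter of 5 FPKM, where it was 3, and 2 to 3 lower. With 1 library left out, 5 to 9 further p53 targets were called higher and 4 to 5 lower, against 11 and 11, and 3216 to 3974 genes in all, against 5159; these fits have fewer libraries, and the lone library is assumed to vary like the other group. With the replicate block 4673 genes and the same number of members were called, 4 higher and 3 lower. The labels give the replicate numbers no meaning, so no pairing was assumed. Deviations of same-numbered libraries from their group means correlated at 0.138 across 10827 genes. With 2 libraries a group, the deviations of replicate 2 mirror those of replicate 1. This single value therefore cannot decide whether same-numbered libraries share more than a number. The log2 change of Trp53 was -0.183 with median of ratios scaling, -0.170 with upper quartile scaling and -0.167 with quantile normalization, against -0.178. Depth limits what can be said of Fas and Pmaip1.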
